A study of Mus musculus with 4 samples.

Results

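The genes described here are 48 genes of lipid storage, lipolysis and adipokine secretion, and the measurement is binding of the glucocorticoid receptor (GR), the nuclear receptor for glucocorticoid hormones, by chromatin immunoprecipitation and sequencing. The genes were taken from a fixed list of names, and a peak was assigned to a gene when the deposited peak list gave that gene as the nearest one, at any distance. In differentiated PDGFRa+ adipose progenitors, 13 of the 48 genes were the nearest gene of a GR peak, with 20 of the 10402 peaks of the list. That is 27.1%, beside 22.5% of all protein-coding genes. In differentiated CD137+ progenitors, 0 of the 48 genes stood in the deposited table of 30 genes. In all there were 4 libraries, 1 immunoprecipitate with the GR antibody and 1 input each for PDGFRa+ cells, labelled CD140+/PDGFRa+, and for CD137+ cells. All 4 libraries came from C57BL/6 mice, from cells sorted with magnetic beads out of adipose tissue that the labels abbreviate as SAT or VAT, grown, exposed to an adipogenic cocktail and given dexamethasone, a synthetic glucocorticoid, at 1 µM. No library without dexamethasone was analysed here, so a peak cannot be read as induced by the drug, and the labels give neither the age of the animals nor the length of treatment. The extraction text in the labels describes embryonic cells, which does not match the adipose source. With 1 library per group there is no replicate spread and no test, and the read depth is not given in the sources used here. Immunoprecipitated DNA gives no expression, so the labelled cell types could not be checked against marker genes.

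Fat cells take up fatty acids released from lipoproteins, activate them with coenzyme A, join them to glycerol as triglyceride and keep the product in a droplet coated with perilipins. Lipolysis runs the other way, with adipose triglyceride lipase, hormone-sensitive lipase and monoglyceride lipase acting in turn. Adipocytes also secrete hormones such as leptin and adiponectin. Glucocorticoids are known to promote both fat cell differentiation and lipolysis, and GR acts at many of its targets from distal enhancers as well as promoters.

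One of the 13 genes had a peak annotated to its promoter. Elovl5 encodes an elongase of polyunsaturated fatty acids, and its peak, scoring 49, was centred 434 bp upstream of the start (chromosome 9, 77764666 to 77764811 as deposited). The RefSeq promoter of Elovl5 is shown because the list annotated that peak to the promoter of this gene. It is given 5′ to 3′ on the + strand of GRCm38.p6, chr9:77917115-77917364, and ends at the base before the annotated start. Capitals mark the CCAAT box, a common promoter element, read here as ATTGG from the opposite strand.

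Elovl5 promoter: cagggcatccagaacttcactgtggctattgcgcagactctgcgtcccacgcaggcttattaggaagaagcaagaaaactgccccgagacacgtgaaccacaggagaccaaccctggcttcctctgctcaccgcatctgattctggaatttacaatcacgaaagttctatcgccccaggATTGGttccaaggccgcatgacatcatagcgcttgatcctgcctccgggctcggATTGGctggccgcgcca

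The 250 bases shown are 55.6% G or C, and the 2 CCAAT boxes begin at -71 and -17 relative to the start. If the start site used by the list is the annotated one, the edge of the peak lay 111 bp upstream of this window. The peak could not be placed on this build, and the sequence under it is not shown. Neither the GR hexamer AGAACA nor the GR palindrome, which is AGAACA followed after 3 free bases by TGTTC, was found on either strand of this window extended to 50 bases past the start. Each palindrome contains the hexamer. Of all 32851 promoter windows of the extended length, 0.0487% held the palindrome, 19% the hexamer and 37.4% a CCAAT box. CCAAT was searched after the sequence had been read. These matches describe letters in a window and not sites of binding.

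Genes of fatty acid uptake had 1 of 5 members with a peak, beside 22.5% of all protein-coding genes. Lpl encodes lipoprotein lipase, which frees fatty acids from circulating triglyceride, and had 2 peaks. The weaker, with a score of 26, lay in exon 1 of 10, 239 bp from the start site (chromosome 8, 71404614 to 71404772 as deposited). The stronger scored 33 in intergenic sequence, 13819 bp upstream. The scale of the score is not stated in the sources used here, so it only ranks peaks within this list, in which 94.0% of the peaks scored 26 or more and 75.6% scored 33 or more. Both Lpl peaks were therefore at or below the list's median score of 33. Angptl4, the inhibitor of lipoprotein lipase and a known glucocorticoid target, was the nearest gene of no peak, nor were the fatty acid translocase gene Cd36 and the binding protein genes Fabp4 and Fabp5.

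The acyl-CoA synthetases, which activate fatty acids, also had 1 of 5 members with a peak, beside the same 22.5%. Acsl3 had an intergenic peak 70540 bp upstream of its start, scoring 41. Acsl1, Acsl4, Acsl5 and Acsl6 had none.

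Triglyceride synthesis held 8 of the 20 peaks, at 3 of its 7 genes, where 22.5% of all protein-coding genes had a peak. Gpam encodes the mitochondrial acyltransferase that starts glycerolipid synthesis, and its 5 peaks were the most of any of the 48 genes. All 5 were annotated as intergenic. They scored 25, 33, 49, 38 and 25 in order from the one at -9179 bp through those at 56996, 232202 and 293107 bp to the one at 496822 bp, where negative distances are upstream. The first distance is from another Gpam start site than the other 4. The peak with the score of 49 was on chromosome 19, 54941693 to 54941838 as deposited, and the peak with the score of 38 lay in an L1 element. The gene is 59.7 kb long in GRCm38, and 3 of the distances exceeded that length, by 172.5, 233.4 and 437.1 kb. That length is of the whole gene and the distances are from the start site used. These values therefore do not give how far the peaks lay past the end of Gpam. The distance of 56996 bp is less than that length, which does not place this intergenic peak inside Gpam. Among all protein-coding genes with a peak, 4.1% had 5 or more.

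The lipins convert phosphatidic acid to diacylglycerol, and Lpin1 is also a known glucocorticoid-responsive gene. Lpin1 had 2 intergenic peaks, with scores of 49 and 41, at 80950 and 250355 bp from the start site used. The distance of the nearer peak is less than the 118.2 kb length of Lpin1 in GRCm38. That length is of the whole gene and the distance is from 1 start site, so this does not place the peak inside Lpin1. Lpin2 had a peak with a score of 33 in intron 16 of 19. Lpin3 had none in the PDGFRa+ list, and neither did Agpat2, Dgat1 and Dgat2, whose products carry out the second and last acylations.

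Fatty acid synthesis, elongation and desaturation had 3 of 13 genes with a peak, near the 22.5% of all protein-coding genes. Acaca, the gene of acetyl-CoA carboxylase 1, held a peak with a score of 33 in intron 41 of 53, 146723 bp from the start site used. That distance equals 53.9% of the gene's length in GRCm38 and does not give the position along the gene. Acacb, Acly, which makes cytosolic acetyl-CoA, and Fasn, the fatty acid synthase gene, had none. Elongases and desaturases had 2 of 9 members with a peak, Elovl5 as described and Fads3. The Fads3 peak scored 33 in the 3' UTR, in exon 12 of 12, 16526 bp from the start site. Fads1 and Fads2, which lie beside Fads3 on chromosome 19, had none, and neither did Scd1, Scd2, Elovl1, Elovl6 and Elovl7. The sterol and lipid regulators Srebf1 and Srebf2 had none, 0 of 2 genes beside the same 22.5%.

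The highest score among the 20 peaks belonged to a lipolysis gene. Abhd5 encodes the activator of adipose triglyceride lipase, and its peak of score 58 was within intron 2 of 5, 17490 bp from the start site (chromosome 9, 122278130 to 122278318 as deposited). Of all peaks, 7.47% scored as high or higher. Mgll, the gene of monoglyceride lipase, which performs the last step of lipolysis, held a peak scoring 49 in intron 3 of 7, in an MTC repeat of the LTR class, 44148 bp from the start site. The lipases Pnpla2, Lipe and Pnpla3 had none. The list gave none to the genes of adipose triglyceride lipase (Pnpla2) and hormone-sensitive lipase (Lipe). Lipolysis had 2 of 5 genes with a peak, beside 22.5% of all protein-coding genes, too few genes to read as a pattern along the pathway. None of the 5 genes of the droplet coat, Plin1, Plin2, Plin3, Plin4 and Cidec, was the nearest gene of a peak. Beside 22.5% of all protein-coding genes, 0 of 5 is also too few genes to read as a pattern.

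Secreted and hormone-related genes had 3 of 6 members with a peak, beside 22.5% of all protein-coding genes. All of these peaks were intergenic, and only those of Lep lay within 100 kb of the start site. Lep, which encodes leptin, had peaks with scores of 33 and 41 at 21566 and 29289 bp from its start site, that is 7.9 and 15.6 kb past the length of the gene, in an L2a and a B3A repeat. They were 7.6 kb apart. Nampt, an enzyme of NAD synthesis that is also found outside cells, had a peak scoring 41 in an Lx5 repeat, 145793 bp upstream. Npr3, the clearance receptor for natriuretic peptides, had a peak with a score of 33 at 217161 bp. Adipoq, the adiponectin gene, Retn (resistin) and Apln (apelin) had none.

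**Figure D1:**
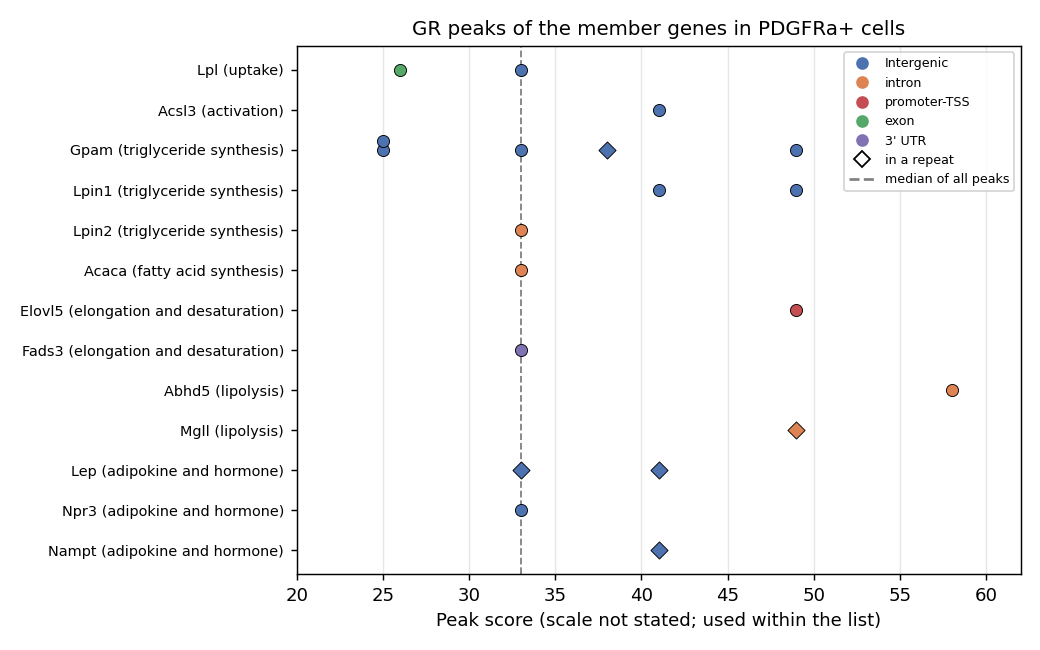
Score of each of the 20 GR peaks (horizontal axis, scale not stated) by gene and role, from 1 PDGFRa+ library; colour gives the annotated class, diamonds are peaks in repeats and the dashed line is the median of 33 over all peaks. Abhd5 stands highest at 58, and 4 peaks, at Gpam, Lpin1, Elovl5 and Mgll, share a score of 49.

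The list names the gene with the nearest start site, which need not be the gene that contains the peak. The annotation column placed 3 further peaks in or at the end of a transcript of these genes. The strongest, scoring 49, was in intron 6 of 10 of Nampt, about 19.3 kb from its start site, and was listed under Gdap10. Another, scoring 25, was in intron 2 of 4 of Elovl6, a long-chain elongase, listed under Gm35986. The last, scoring 31, was at the transcription end of Plin3, listed under Ticam1. Counting these, 15 of the 48 genes had a peak (31.2%, 95% exact binomial interval 18.7 to 46.3), with Plin3 among them for the droplet coat. Under the same rule 25% of all protein-coding genes and 20 of 62 other genes of the same pathways (32.3%) had one. This count was added after the data were seen.

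The share of these genes with a peak was close to that of genes in general. It was 27.1% (95% exact binomial interval 15.3 to 41.8, 13 of 48), beside 22.5% of all 21887 protein-coding genes. With peaks within 100 kb the shares were 20.8% for the 48 genes and 19.8% for all protein-coding genes, and within 3 kb of a start site 4.17% (2 genes, Lpl and Elovl5) and 3.39%. With a score of 50 or more, Abhd5 alone was left, 2.08%, beside 2.6%. Each interval of the 48 genes holds the share of all genes, so at this number of genes no difference was detectable. Intervals cover counting error only.

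**Figure D2:**
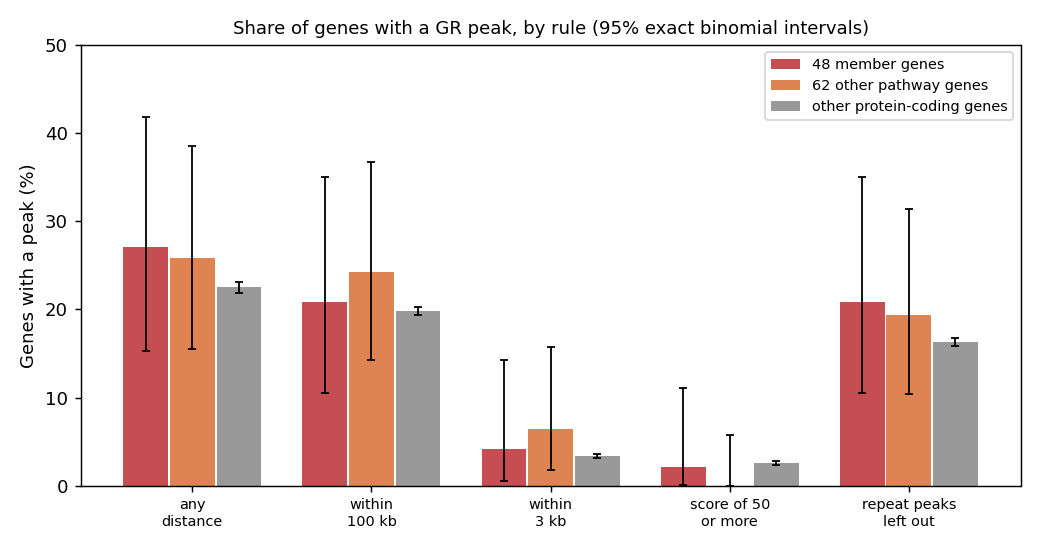
Percent of genes with a PDGFRa+ GR peak (vertical axis) under 5 rules, for the 48 genes, 62 other genes of the same pathways and all other protein-coding genes; error bars are 95% exact binomial intervals. At any distance the bars stand at 27.1, 25.8 and 22.5%, and the intervals of the 48 genes hold the share of the other genes under every rule shown.

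The genes with a peak tended to be longer than those without. The 13 genes had a median length of 59.7 kb and the 35 others 19 kb, and over all protein-coding genes the medians were 38 kb with a peak and 14.3 kb without. None of the 6 genes up to 8.7 kb long had a peak, namely Fabp4, Fabp5, Retn, Pnpla2, Angptl4 and Elovl1, in a class where 12.9% of all protein-coding genes had one. From there to 31.2 kb, 4 of 21 genes had a peak, 19% beside 17.8% of all. Above 31.2 kb, 9 of 21 had one, 42.9% beside 36.9%. Gene length therefore moved with the presence of a peak in these genes as in all genes, and its part in the pattern was not tested.

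**Figure D3:**
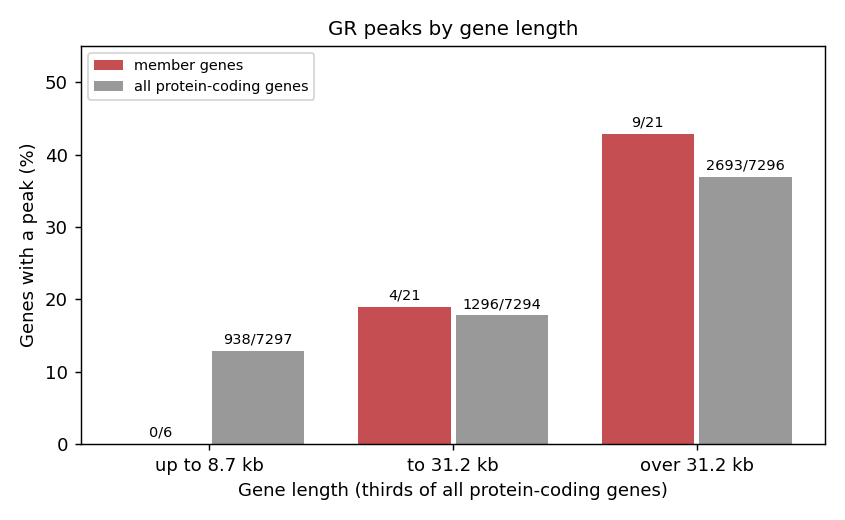
Percent of genes with a PDGFRa+ GR peak (vertical axis) in 3 classes of gene length in GRCm38, for the 48 genes and for all protein-coding genes; fractions above the bars are genes with a peak over genes in the class. Both sets stand highest above 31.2 kb, at 42.9 and 36.9%.

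The 20 peaks had scores and distances in the range of the other 10382 peaks of the list. Their median score was 35.5, with a range of 25 to 58, and the other peaks had a median of 33. They lay a median of 50.6 kb from a start site, and the others 47.3 kb. Of the 20 peaks, 13 were intergenic (65.0%, interval 40.8 to 84.6, beside 56.3% of the others), and 4 of these 13 lay upstream of the start site. Introns held 4 of the 20 (20%, interval 5.73 to 43.7, beside 37.3%), at Abhd5, Mgll, Lpin2 and Acaca. Repeats held 5 of them (25%, interval 8.66 to 49.1, beside 38.1%). These intervals hold the values of the other peaks. The intervals treat the 20 peaks as independent, although Gpam had 5 of them and Lpin1 and Lep 2 each, all intergenic. They may therefore be too narrow, and the intergenic share rests largely on these genes. Among the 13 genes, 7 had an intergenic peak and 7 a peak inside the gene or its promoter, with Lpl in both groups. Counted by gene, the highest score had a median of 41 both in the 13 genes and in the other protein-coding genes with a peak.

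**Figure D4:**
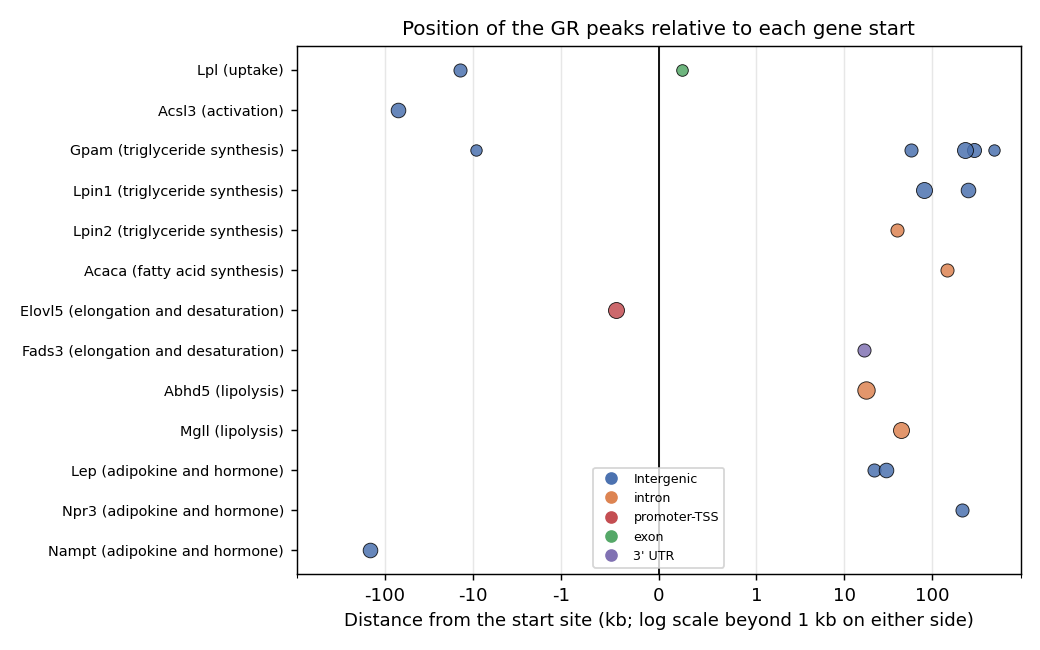
Distance of each GR peak from the start site of its gene (horizontal axis, kb, linear within 1 kb of 0 and logarithmic beyond it; negative is upstream) in 1 PDGFRa+ library; colour gives the annotated class and a larger point a higher score. Lpl and Elovl5 have the only peaks within 3 kb, and 7 of the 20 lie over 100 kb away.

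Other genes of the same pathways had a peak in 16 of 62 cases (25.8%, interval 15.5 to 38.5), beside 22.5% of all protein-coding genes. Cdh13, which encodes a receptor for adiponectin, had an intron peak scoring 49, in a repeat. Cavin1, which encodes a coat protein of caveolae, had peaks with scores of 41 and 33 at 1870 and 6666 bp. G0s2, the gene of the inhibitor of adipose triglyceride lipase, had a peak scoring 33 at -1820 bp. Insig2, whose product holds back SREBP processing, had a peak at its promoter, scoring 33 at 41 bp, and Lrp1, a lipoprotein receptor gene, one scoring 21 at -897 bp. A stronger peak, scoring 53, was in an intron of Lrp1 and listed under Nxph4. Peaks listed under other genes were also placed in introns of Cdh13 and Me1 (highest score 41 each), Agpat3 (33) and Prkar2b (26), and at the transcription end of Nrg4 (49). The strongest peaks of Adra2a and Agpat4 scored 41 and that of Insig1 scored 38. Cav1, Gpat3, Mogat2, Scap and Vldlr had a highest score of 33, Elovl4 of 28 and Lepr of 26. The highest-scoring peaks of Me1, Insig1, Cav1, Mogat2, Vldlr and Elovl4 lay in repeats. Within 3 kb of a start site, 4 of the 62 genes had a peak (6.45%, interval 1.79 to 15.7), beside 3.39% of all protein-coding genes. Under each rule the interval of the pathway genes holds the share of all genes.

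In CD137+ cells none of the 48 genes was in the table, which lists 25 of the 21887 protein-coding genes (0.114%). At that share a count of 0 among 48 genes carries no information on whether they were bound, and the table holds only genes with a called interval, so it is not a comparison with PDGFRa+ cells. The CD137+ interval closest to any of the 48 genes lay in Zhx3, at position 160805312 of chromosome 2 (mm10), 75.4 kb from Lpin3, with a deposited mean value over the gene's CD137+ intervals of 40. In the PDGFRa+ list Zhx3 had intron peaks scoring 45 and 40, at 519 and 67688 bp from its start site. The next closest interval, assigned to Kctd10 and Myo1h, lay 106.0 kb from Acacb with a mean CD137+ value of 37. No other interval was within 1 Mb of one of these genes.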

How the data were processed

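Per the submitters' processing notes, FastQC, Bowtie2, MACS2, SAMtools, bedtools 2.17.0 and mm10 were used, with no role or setting given. The PDGFRa+ table deposited by the authors gives for each peak a score, a whole number of unstated scale, and a distance to the nearest start site. The CD137+ table deposited by the authors gives a signal in an unstated unit, as the mean over a gene's CD137+ intervals, used here, and as the highest value over both immunoprecipitates. Neither was transformed here. For all 20 peaks, the start site implied by position and distance lay at least 3.4 kb from that of the gene in GRCm38.p6, although the labels name mm10, so PDGFRa+ coordinates are printed as deposited, on a build not given in the sources used here.

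Genes, lengths and promoters came from the RefSeq tables of GRCm38.p6, which held all 48 genes and promoters of 39. Genes were matched on symbol; Entrez identifiers found the same 20 peaks. Shares have 95% exact binomial intervals (scipy 1.17.1, pandas 2.3.3, Python 3.11.15). A check on simulated data recovered the planted genes, as its construction required. It did not read the deposited peaks, so it does not test the counts reported here. Every gene with a peak is named; pathway genes were named by score or distance, and a result for a pathway gene is not reported here. Genes, lists and rules were chosen with earlier results of these data known. The input libraries were not analysed here.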

Additional observations from a re-analysis of the deposited data

How the results depend on the processing

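With a 100 kb limit the 48 genes had 13 peaks instead of 20, at 10 genes instead of 13. Within 3 kb of a start site, 2 genes with 2 peaks were left, 0% of them in introns, and 4 of the other pathway genes. With a score of 50 or more, 1 gene with 1 peak was left, with a median score of 58 and 100% in introns, and 0 of the other pathway genes. These settings keep fewer peaks by construction. Leaving out repeat peaks gave 15 peaks at 10 genes (20.8%, interval 10.5 to 35.0), beside 16.3% of all protein-coding genes. The other matching rules gave 13 genes and a count of 0 in the CD137+ table. The nearest gene can differ from the gene a peak lies in, and unknown depth limits what the absence of a peak shows. No paired analysis was possible because each group has 1 library.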

Other observations

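On chromosome 19, the list placed 9 peaks between the first peak of Adra2a, an alpha-adrenergic receptor gene that restrains lipolysis, and the last peak of Gpam (54110894 to 55211046 as deposited, 1100.2 kb). Of these, 4 were listed under Adra2a and 5 under Gpam, and 0 under any other gene. Their scores ran from 25 to 49, and 1 lay in a repeat. The median over 2589 bins of 1 Mb was 4 peaks, and 3.55% of bins held 9 or more. This stretch was chosen after its peaks were seen, it is longer than a bin, and its ends were set by the peaks themselves.

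The GR hexamer AGAACA, on either strand, was in the promoter windows of 8 of the 39 genes that have one (20.5%), beside 21.3% of all 27025 genes with a window. It was in those of 5 of the 12 genes with a peak (Acaca, Lpin1, Lpin2, Mgll and Npr3) and of 3 of the 27 genes without a peak (Acsl5, Acsl6 and Lpin3). Over all protein-coding genes with a window, it was in 17.2% of 3861 genes with a peak and 18.9% of 13631 genes without, so the split seen in the 39 genes was not found over all genes. None of those 5 genes has its peak within 3 kb of the start site. The GR palindrome was in the windows of 0 of the 39 genes, beside 0.0518% of all genes.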
